A study of Drosophila melanogaster with 16 samples.

Results

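The sodium-potassium pump of Drosophila was followed through adult life at the level of its messenger RNAs. The pump is a plasma membrane enzyme made of a catalytic alpha subunit, which splits ATP to carry sodium out of the cell and potassium in, and a beta subunit, which is needed for the alpha subunit to be assembled and delivered to the membrane. In neurons it restores the ion gradients that are spent by action potentials. Fly mutants of the alpha subunit are known for seizures and paralysis. The pump subunits are encoded by 4 genes. Atpalpha encodes the alpha subunit, and nrv1, nrv2 and nrv3 (nervana) encode the beta subunits. nrv2 is known from glia and epithelia, where together with Atpalpha it is needed for septate junctions, and nrv3 is known as the beta subunit of the nervous system. Atpalpha lies on chromosome arm 3R and the others on 2L, where nrv1 and nrv2 are neighbours. The 4 genes were chosen with earlier results of these data known. Their features were taken by annotation: all array features whose accession belongs to one of these 4 genes. This gave 18 of the 45366 features of the array, namely 7 for Atpalpha, 2 for nrv1, 1 for nrv2 and 8 for nrv3. A feature is one probe sequence on the array. All 18 are kept in what follows.

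Motor neurons (MNs) were compared at 3 ages of female flies: 7 days after eclosion (n = 5), 35 days (n = 5) and 45 days (n = 6). In all flies the D42 driver expressed GFP, and GFP-positive cells of the dissociated thoracic ganglion were sorted by FACS, so that the cells are MNs only as far as the driver marks them at each age. Each array held Cy3-labelled, doubly amplified material of 1 pool of 5 flies, with 10000 cells per pool. The flies were kept at 25 °C, 50% humidity and 12 hours of light. The authors name w1118 as the strain of the arrays, and the labels name no further allele or treatment. Neuronal markers were measured well (7 of 7 had a feature well above background on all arrays), while VGlut, the vesicular glutamate transporter of fly MNs, was not matched by symbol.

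Levels are log2 signals after subtracting each array's 75th percentile, so that a difference of 1 is 2-fold, and levels of different features are not compared with each other. Between 56.7% and 67.1% of spots were well above background on each array, and no spot was flagged as saturated. On this scale the median of all 12969 genes was lower by 0.24 at 45 than at 7 days, lower by 0.37 at 35 than at 7 days, and higher by 0.14 at 45 than at 35 days. Among the 6819 genes measured by features well above background on all arrays (bright features), the 3 medians were -0.07, 0.00 and -0.07. All 7-day arrays lay in row 2 of their slides and all 35-day arrays in row 1, so age and slide row cannot be told apart between these ages, whereas 3 of the 6 arrays at 45 days lay in each row. No marker gene of another cell type, of neurons or of MNs passed the threshold used below in any pair of ages. The 7 muscle markers had a median difference of 0.75 at 45 against 7 days and of 1.17 at 45 against 35 days, and their mean log2 level ranged from -2.78 to -0.97 at 45 days, from -4.74 to -2.32 at 35 days and from -4.86 to -2.06 at 7 days. The 4 fat body markers had a median of 0.90 at 45 and of 0.61 at 35 against 7 days, the 3 tracheal markers of -0.93 and -2.31, the 4 hemocyte markers of -0.02 and -0.66, and the 8 glial markers of -0.14 and -0.13. For the 7 neuronal and the 4 MN markers the medians were -0.24 and -0.45 at 45 against 7 days, and -0.29 and -0.62 at 35 against 7 days. The part of these cells in the pump values was not tested. In pooled cells, fewer cells of a type and less RNA per cell cannot be told apart.

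No pump gene passed the threshold (limma, Benjamini-Hochberg adjusted p below 0.05 over all genes and more than 2-fold) in any pair of ages. The count was 0 of 4 at 45 against 7 days, where 0.0231% of all genes passed, 0 of 4 at 35 against 7 days, where 0.116% passed, and 0 of 4 at 45 against 35 days, where 0.00771% passed. Without adjustment, limma p was below 0.05 for 2 of the 4 genes (Atpalpha and nrv3) at 45 against 7 days, against 9.68% of all genes, for the same 2 at 35 against 7 days, against 25%, and for 0 at 45 against 35 days, against 7.11%. The background at 35 against 7 days depended on 1 array, since 1373 of all genes passed without 35-day replicate 4, against 15 with it, while the pump genes still gave 0. The methods' t-test, run on the same values, gave 0 genes past the threshold and the same 3 unadjusted counts. The moderated F test over the 3 ages gave adjusted p = 0.188 for nrv3, 0.191 for Atpalpha, 0.463 for nrv2 and 0.837 for nrv1, and 0.0925% of all genes passed it.

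**Figure D1:**
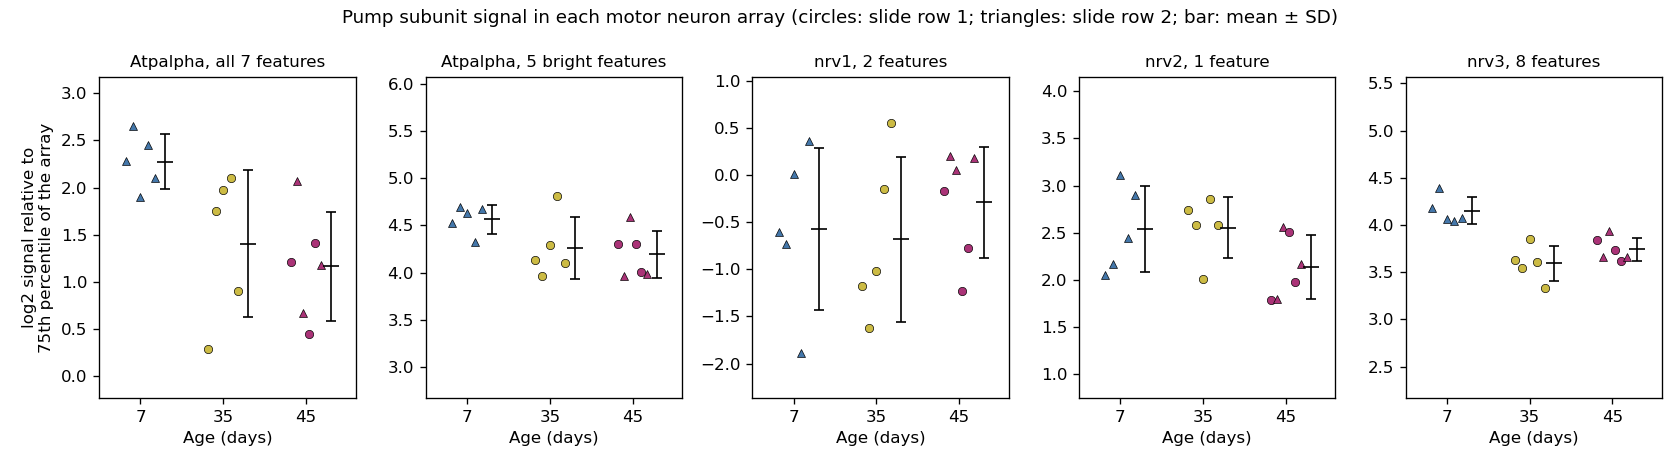
Level of each pump gene in each of the 16 arrays (log2 signal relative to the 75th percentile of the array) at 7, 35 and 45 days, with the mean and SD beside the points and circles for slide row 1 and triangles for slide row 2. All nrv3 points at 35 and 45 days lie below the lowest 7-day value of 4.04, and the spread of Atpalpha shrinks when the 2 dim features are left out.

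The catalytic subunit, Atpalpha, had the largest difference from 7 days among the 4 as a mean over all its features, at both older ages, but not between 45 and 35 days. Its level was 2.28, 2.65, 1.90, 2.45 and 2.10 on the 5 arrays at 7 days. At 35 days it was 0.29, 1.76, 1.98, 2.10 and 0.90. At 45 days it ranged from 0.45 to 2.07, with a median of 1.20. Thus 5 of 6 arrays at 45 days and 3 of 5 at 35 days were below every 7-day array, and both older ages overlapped the youngest. The mean was 1.17 ± 0.57 at 45 days and 2.28 ± 0.29 at 7 days (SD, n = 6 and 5), a difference of -1.11 (95% confidence interval -1.76 to -0.46, adjusted p = 0.323 by limma, exact permutation p = 0.00649, two-sided). The 35-day mean was lower than the 7-day mean by 0.87 (adjusted p = 0.178, exact permutation p = 0.0317), and the 45-day mean differed from the 35-day mean by -0.24 (adjusted p = 0.844, exact permutation p = 0.558).

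This value rested on 2 of the 7 Atpalpha features. Features A_09_P052336 and A_09_P185785, both annotated to transcript FBtr0089510, were dim. They were well above background on 14 and 13 of the 16 arrays, while the other 5 were so on all 16. The intensity of A_09_P185785 ranged from 7 to 3059 over the arrays. Its level at 7 days was -3.55, -1.94, -2.79, -2.30 and -2.58. At 35 days it was -10.95, -4.51, -2.80, -2.70 and -7.04, and at 45 days it ranged from -10.65 to -2.66, with a median of -4.33. Thus 3 arrays of each older age were below every 7-day array, some of them by far, and the others overlapped the 7-day range. The fitted difference was -3.18 ± 1.53 (SE, as after each difference below) at 45 against 7 days for this feature and -2.72 ± 1.32 for A_09_P052336 (adjusted p = 0.579 for both). The other FBtr0089510 feature, A_09_P090675, was bright and differed by -0.38 ± 0.22.

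Over the 5 bright features alone, Atpalpha was at 4.52, 4.70, 4.63, 4.32 and 4.67 at 7 days. It was at 4.13, 3.96, 4.29, 4.81 and 4.10 at 35 days, and at 45 days it ranged from 3.96 to 4.59, with a median of 4.16. Again 5 of 6 arrays at 45 days lay below every 7-day array, and 1 array at 35 days, replicate 4, was the highest of all. The difference was -0.37 at 45 against 7 days (95% confidence interval -0.74 to -0.01, adjusted p = 0.411, exact permutation p = 0.0216) and -0.31 at 35 against 7 days (adjusted p = 0.511, exact permutation p = 0.0952), so most of the gene-mean difference came with the 2 dim features. With each array centred on its median, the bright-feature difference at 45 against 7 days was -0.21, with 4 of 6 arrays below every 7-day array and exact permutation p = 0.571. With bright features the differences of nrv3 from 7 days, given below, were larger than those of Atpalpha. The bright features were chosen in this way after the values were seen. The brightest of the 5, A_09_P043806, had an intensity of 350193 to 440991 over all arrays, a narrow range. Its level ranged from 4.53 to 5.69.

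The bright Atpalpha features did not all differ by the same amount. The feature A_09_P043811 is annotated to FBtr0089513 in the scanner files, but its RefSeq accession in the deposited table is that of the 3 FBtr0089510 features, so its transcript is not settled. It had levels of 3.74, 3.78, 3.79, 3.89 and 3.56 at 7 days. At 35 days it was at 3.50, 3.50, 3.56, 3.79 and 2.91, and at 45 days from 2.51 to 3.59 with a median of 3.08. Most arrays at 45 days were low, and the 35-day arrays overlapped both other ages. Its difference was -0.68 ± 0.21 at 45 against 7 days (adjusted p = 0.365, exact permutation p = 0.00649). The 2 features of FBtr0089512 differed by -0.23 and -0.19 over the same ages, and the feature of FBtr0333324 by -0.39. All 7 features had a lower mean at both older ages than at 7 days, at -3.18 to -0.19 for 45 and -2.97 to -0.20 for 35 days.

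**Figure D2:**
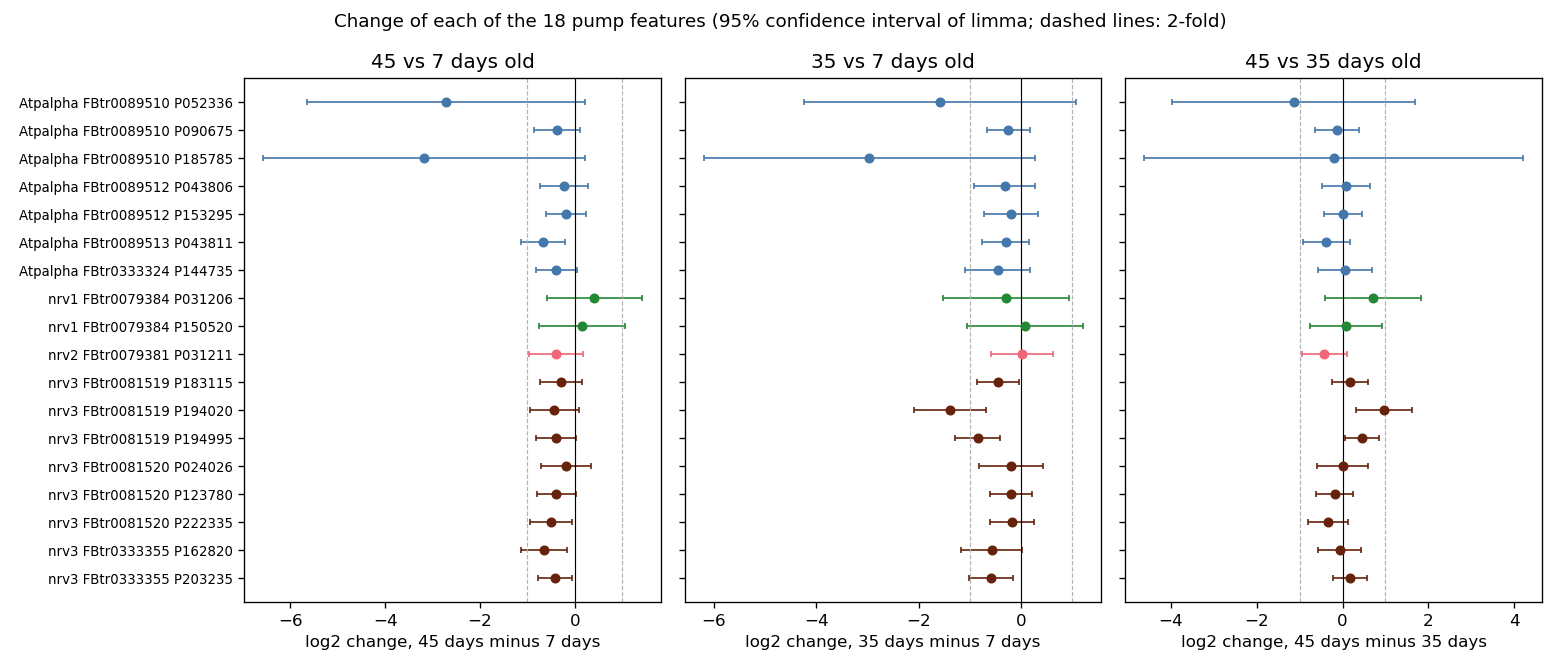
Difference of each of the 18 pump features for 45 against 7 days, 35 against 7 days and 45 against 35 days (log2, points), with the 95% confidence interval from limma (bars) and dashed lines at 2-fold. The 2 dim Atpalpha features have the widest intervals, and A_09_P194020 of nrv3 is at -1.40 for 35 against 7 days and at 0.96 for 45 against 35 days.

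Among the beta subunits, nrv3 had the most even values within an age, but it was averaged over 8 features, against 2 for nrv1 and 1 for nrv2. Single nrv3 features had SDs of 0.13 to 0.59 within an age, against 0.33 to 0.46 for the nrv2 feature. The nrv3 mean over 8 features was 4.18, 4.40, 4.07, 4.04 and 4.08 at 7 days. At 35 days it was 3.63, 3.55, 3.85, 3.61 and 3.34. At 45 days it ranged from 3.62 to 3.93, with a median of 3.70. Every array at 35 and at 45 days was below every array at 7 days, while the 2 older ages overlapped. Over all genes, 1.01% had no overlap in this direction at 45 against 7 days, 5.11% at 35 against 7 days and 0.317% at both ages. The mean was 3.74 ± 0.12 at 45 days and 4.15 ± 0.15 at 7 days (SD, n = 6 and 5), a difference of -0.41 (95% confidence interval -0.76 to -0.06, adjusted p = 0.478, exact permutation p = 0.00433). At 35 days the mean was 3.59 ± 0.18, and the difference from 7 days was -0.56 (95% confidence interval -0.95 to -0.16, adjusted p = 0.0941, exact permutation p = 0.00794, the smallest that 5 against 5 arrays allow). The 45-day mean was higher than the 35-day mean by 0.15 (adjusted p = 0.757, exact permutation p = 0.141), within the spread of the arrays. The comparisons of 45 and 35 days with 7 days share the 5 arrays at 7 days.

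The nrv3 values were read under other settings as well. With dim signals of all genes set to a floor, the adjusted p at 35 against 7 days was 0.0401, short of the 2-fold limit. In that setting 776 of all genes passed the threshold at these ages, against 15 in the main setting. The brightest nrv3 feature alone, A_09_P024026, differed by -0.19 at 45 and -0.20 at 35 against 7 days. Its intensity kept to a narrow range of 344967 to 486550 over all arrays, while its level ranged from 4.67 to 5.94. How far the brightest features could still follow a difference in RNA was not tested. With each array centred on its median, the nrv3 difference was -0.24 at 45 against 7 days, 5 of 6 arrays were below every 7-day array and the exact permutation p was 0.437, whereas 35 against 7 days stayed without overlap at -0.41. With quantile normalization 4 of 5 arrays at 35 days and 6 of 6 at 45 days were below every 7-day array. Relative to the median of all genes the main differences were -0.17 at 45 days and -0.19 at 35 days against 7 days, and relative to the median of genes from bright features they were -0.34 and -0.56. Within slide row 2, which holds all 7-day arrays and 3 of the 45-day arrays, nrv3 differed by -0.40 (adjusted p = 0.679). No such value exists for 35 against 7 days.

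nrv1 showed no separation of the ages. Its level was -0.61, -0.73, 0.01, -1.88 and 0.36 at 7 days and -1.18, -1.62, -1.02, -0.15 and 0.55 at 35 days. At 45 days it ranged from -1.24 to 0.20 with a median of -0.06. The 45-day mean was higher than the 7-day mean by 0.28 (95% confidence interval -0.66 to 1.21, adjusted p = 0.819) and than the 35-day mean by 0.39 (-0.56 to 1.34, adjusted p = 0.744), and the 35-day mean differed from the 7-day mean by -0.11 (-1.27 to 1.04, adjusted p = 0.925). Each of these intervals reaches past 2-fold in at least 1 direction. Its 2 features, both annotated to FBtr0079384, followed each other over the 16 arrays (Pearson r = 0.87).

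nrv2, read by 1 feature of FBtr0079381, had nearly the same mean at 35 and 7 days. It was at 2.06, 2.17, 3.11, 2.45 and 2.90 at 7 days and at 2.74, 2.58, 2.01, 2.86 and 2.58 at 35 days. At 45 days it ranged from 1.79 to 2.56 with a median of 2.07, and 3 of 6 arrays were below every array of either younger age. The difference was -0.40 at 45 against 7 days (95% confidence interval -0.98 to 0.17, adjusted p = 0.607), 0.02 at 35 against 7 days (-0.59 to 0.63, exact permutation p = 0.937) and -0.42 at 45 against 35 days (-0.95 to 0.10, adjusted p = 0.529, exact permutation p = 0.0649). Markers of glia, where nrv2 is known to be expressed, had a median difference of -0.47 over 8 genes at 45 against 35 days, and their mean log2 level ranged from -2.83 to -1.72 at 45 days and from -2.30 to -1.21 at 35 days. Their part in the nrv2 values was not tested. For the 4 features that were printed in 2 spots per array, the SD between spots was 0.05 to 0.08, against an SD of 0.30 to 0.86 over arrays of equal age.

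At the level of single features, 0 of 18 passed the threshold in each pair of ages, against 0.375% of all features at 45 against 7 days, 0.101% at 35 against 7 days and 0.0176% at 45 against 35 days. Without adjustment, limma p was below 0.05 for 4 features at 45 against 7 days (8.89% of all features), 4 at 35 against 7 days (28%) and 2 at 45 against 35 days (7.92%). The F test over the 3 ages passed 0 of 18 and 0.615% of all features. The mean was lower at 45 than at 7 days for 16 of the 18 features, where 66.5% of all features were lower, and lower at 35 than at 7 days for 16 of 18, where 70.7% were. At 45 against 35 days 8 of 18 were lower, where 38% of all features were. Averaged by annotated transcript, 0 of 9 passed in each pair of ages, against 0.0978% of all transcripts at 45 against 7 days, 0.109% at 35 against 7 days and 0.00376% at 45 against 35 days. Features of one gene share its RNA and are not independent.

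The 8 features of nrv3 fell into 3 annotated transcripts whose means did not follow the ages alike, though none passed the threshold. The 3 features of FBtr0081519 were lowest at 35 days. For A_09_P194020 the level was 2.68, 2.89, 2.06, 2.86 and 2.38 at 7 days. At 35 days it was 1.57, 1.57, 1.52, 0.22 and 1.00. At 45 days it ranged from 1.84 to 2.54, with a median of 2.10. All 35-day arrays were below all others, and the ages 45 and 7 days overlapped. The difference was -1.40 ± 0.31 at 35 against 7 days (adjusted p = 0.0754, exact permutation p = 0.00794) and 0.96 ± 0.29 at 45 against 35 days (adjusted p = 0.454, exact permutation p = 0.00216). Feature A_09_P194995 had the same order, with 4.82, 5.17, 4.43, 4.73 and 4.82 at 7 days, 4.09, 3.85, 4.00, 4.10 and 3.66 at 35 days, and 4.12 to 4.63 with a median of 4.36 at 45 days. It differed by -0.85 ± 0.20 at 35 against 7 days (adjusted p = 0.0754) and by 0.45 ± 0.18 at 45 against 35 days (adjusted p = 0.454). The third feature, A_09_P183115, differed by -0.45 at 35 against 7 days and by 0.17 at 45 against 35 days.

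Across all features, 5.11% had every 35-day array below every 7-day array, as these 3 features did, and 0.661% had every 45-day array above every 35-day array, as the first 2 did. A_09_P194020 passed the threshold at 35 against 7 days in 3 other settings. These were a floor on dim signals (adjusted p = 0.0271), all 3 ages in one model (adjusted p = 0.0363) and leaving out 35-day replicate 4, its lowest array (-1.16, adjusted p = 0.0118). Many more features passed in these settings: 3465, 317 and 5834 of all 45366, against 46 in the main setting.

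**Figure D3:**
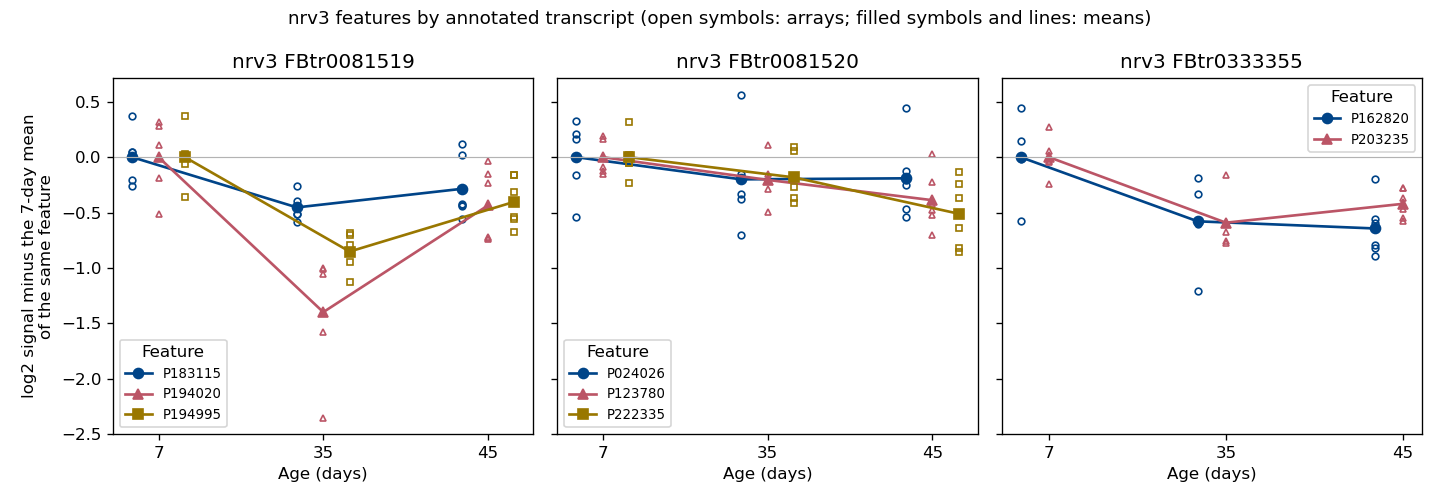
Level of the 8 nrv3 features minus each feature's own 7-day mean (log2), by age in days and annotated transcript; open symbols are arrays, filled symbols and lines are means. The FBtr0081519 features reach -1.40, -0.85 and -0.45 at 35 days, whereas those of FBtr0081520 stay between -0.21 and -0.18.

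The 3 features of FBtr0081520 lacked this dip at 35 days. Their differences were -0.21 to -0.18 at 35 against 7 days and -0.51 to -0.19 at 45 against 7 days, and A_09_P222335 was the largest at -0.51 ± 0.20 (adjusted p = 0.494, exact permutation p = 0.013). At 35 against 7 days the 2 features of FBtr0333355 were at -0.58 and -0.59, beyond the -0.45 of A_09_P183115 of FBtr0081519. Both features of FBtr0333355 were lower at both older ages. Of these, A_09_P203235 was at 3.43, 3.94, 3.64, 3.73 and 3.63 at 7 days, at 3.09, 2.99, 3.51, 2.92 and 2.90 at 35 days, and between 3.10 and 3.39 with a median of 3.26 at 45 days. It was the only pump feature with every 45-day array below every 7-day array, where 0.845% of all features were, and it differed by -0.42 ± 0.16 (adjusted p = 0.48, exact permutation p = 0.00216).

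The transcripts were then set against each other within each array, where the percentile subtracted from an array cancels. A narrow intensity range of a bright feature would not cancel in this way. A_09_P024026 of FBtr0081520 stayed at 344967 to 486550, while A_09_P194020 of FBtr0081519 ran from 9227 to 109133. The part of this in the differences was not tested. FBtr0081519 minus FBtr0081520 was -0.15, 0.09, -0.47, 0.18 and -0.20 at 7 days. At 35 days it was -0.58, -0.48, -0.82, -1.40 and -0.80. At 45 days it ranged from -0.43 to 0.25, with a median of -0.17. All 35-day arrays were below all others, with almost no gap to the lowest 7-day array. The difference changed by -0.71 at 35 against 7 days (exact permutation p = 0.00794) and by 0.69 at 45 against 35 days (exact permutation p = 0.00216, the smallest that 6 against 5 arrays allow), and by -0.01 at 45 against 7 days (exact permutation p = 0.957). Within slide row 1, which holds all 35-day arrays and 3 of the 45-day arrays, the change at 45 against 35 days was 0.61 (exact permutation p = 0.0357). FBtr0081519 minus FBtr0333355 changed by 0.47 at 45 against 35 days (exact permutation p = 0.00649) and by -0.32 at 35 against 7 days (exact permutation p = 0.103). In all, 33 within-array differences were compared, and their p-values are not adjusted. Those of nrv3 minus nrv2 entered this count for all and for bright features with identical values. The 9 between nrv3 transcripts and those from bright features were added after the features had been seen.

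The assignment of features to transcripts carries a limit. The scanner files place A_09_P024026 under FBtr0081520, whereas its RefSeq accession in the deposited table is the one of the FBtr0081519 features. With this feature moved, the within-array change was -0.53 at 35 against 7 days (exact permutation p = 0.00794) and 0.65 at 45 against 35 days (exact permutation p = 0.00649). A feature that lies in sequence shared by transcripts reads them together, and probe positions were not used here.

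The beta subunits were also set against Atpalpha, and nrv3 against nrv2, within each array. With all features, nrv1 minus Atpalpha was higher at 45 than at 7 days by 1.39 (exact permutation p = 0.0238), nrv2 minus Atpalpha by 0.71 (exact permutation p = 0.195) and nrv3 minus Atpalpha by 0.70 (exact permutation p = 0.0563). These values held the 2 dim Atpalpha features. With bright features only they were 0.65 (exact permutation p = 0.16), -0.03 (exact permutation p = 0.913) and -0.04 (exact permutation p = 0.682). The last, nrv3 minus Atpalpha from bright features, ranged from -0.66 to -0.30 at 45 days and from -0.59 to -0.28 at 7 days, while at 35 days the range was -1.20 to -0.41. The 45- and 7-day ranges nearly coincided.

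nrv3 minus nrv2 was lowest at 35 days. It was 2.12, 2.23, 0.96, 1.59 and 1.18 at 7 days and 0.89, 0.97, 1.84, 0.75 and 0.76 at 35 days, and it ranged from 1.23 to 2.05 at 45 days with a median of 1.57. The 35-day values other than replicate 3 were below every 45-day array. The difference changed by 0.57 at 45 against 35 days (exact permutation p = 0.039) and by -0.58 at 35 against 7 days (exact permutation p = 0.111). The p at 45 against 35 days was 0.0635 to 0.0857 when any 1 of 7 arrays was left out (35-day replicates 1, 2, 4 and 5 and 45-day replicates 1, 2 and 5).

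**Figure D4:**
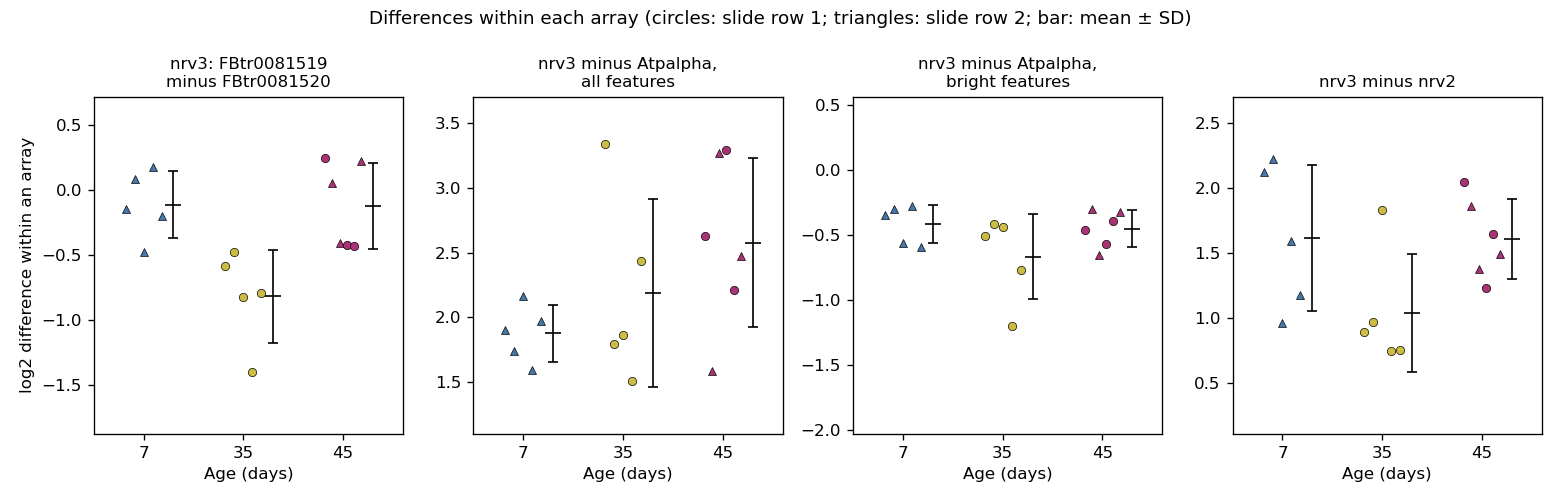
Log2 differences within each of the 16 arrays by age in days, with mean and SD beside the points: FBtr0081519 minus FBtr0081520 of nrv3, nrv3 minus Atpalpha with all and with bright features, and nrv3 minus nrv2. The 35-day points of the first panel (-1.40 to -0.48) lie below those of 45 days (-0.43 to 0.25), and the spread of nrv3 minus Atpalpha shrinks with bright features.

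Over the 16 arrays, the levels of Atpalpha and nrv3 went together most among the 6 pairs of subunits (Pearson r = 0.56, or 0.66 with bright features and 0.51 after subtracting the age means). The other pairs ranged from -0.11 to 0.44 with bright features. These are descriptions, since the arrays share their scaling and ages. The genes most like nrv3, among 4679 genes with all features bright, were ATPsyngamma, the gamma subunit of the mitochondrial ATP synthase (r = 0.91), nAChRbeta1, a nicotinic acetylcholine receptor subunit (r = 0.90), and sesB, the mitochondrial ADP/ATP carrier (r = 0.89). Those most like nrv2 were CAH7, a carbonic anhydrase (r = 0.86), bbc (r = 0.86) and DNaseII (r = 0.85), and those most like nrv1 were CG17059 (r = 0.84), CG4783 (r = 0.82) and cl (r = 0.78). For Atpalpha they were CSN3, Hph and Scp2 (r = 0.83, 0.82 and 0.82), and with bright features only, Gad1, the glutamate decarboxylase (r = 0.91), Mpcp2, a mitochondrial phosphate carrier (r = 0.91), and Sap47 (r = 0.89).

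Related genes were read as 4 lists beside the subunits, under this scaling only. Of septate junction genes, 0 of 18 measured passed the threshold in each pair of ages, and 10 were lower and 8 higher at 45 than at 7 days, with a median of -0.19, against -0.24 for all genes, of which 68.2% were lower. The 2 with the largest statistics were vari, a scaffold protein of the junction (-1.34 ± 0.37, adjusted p = 0.332), and Mcr, a junction protein of the macroglobulin complement family (0.88 ± 0.26, adjusted p = 0.354). Of sodium and potassium transport genes, 0 of 15 passed, and 12 were lower at 45 than at 7 days, with a median of -0.40. Their medians against 7 days at 35 days were -0.10 for septate junctions and -0.13 for transport, against -0.37 for all genes. The transport list was led by Eaat1, the glial glutamate transporter that runs on the sodium gradient (-1.76 ± 0.47, adjusted p = 0.323), and kcc, a potassium-chloride cotransporter (-1.28 ± 0.52, adjusted p = 0.486).

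The 11 other P-type ATPases share the catalytic cycle of Atpalpha. Of these, 1 passed the threshold at 35 against 7 days, where 0.116% of all genes passed and age and slide row cannot be told apart. This was SERCA, the calcium pump of the endoplasmic reticulum, at -1.90 ± 0.28 (adjusted p = 0.0487), and only 2 of its 5 features were bright. At 45 against 7 days SERCA was at -0.99 ± 0.51 (adjusted p = 0.557) and 0 of 11 passed. All 11 had a lower mean at 45 than at 7 days, with a median of -0.63. Of all genes 68.2% were lower, with a median of -0.24. A feature well above background on all arrays was present for 9 of the 11. PMCA, the plasma membrane calcium pump, was at -0.54 ± 0.17 (adjusted p = 0.388) and CG4301, a predicted member, at -1.57 ± 0.77 (adjusted p = 0.543). The alpha and beta paralogs of the pump were near background, with 0 of 4 measured having a bright feature, and 0 of 4 passed. CG5250 was at -0.79 ± 0.30 (adjusted p = 0.47) and JYalpha, an alpha subunit paralog needed in male fertility, at -0.37 ± 0.27 (adjusted p = 0.616).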

How the data were processed

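The members and the gene lists were chosen with earlier results of these data known. Per the labels and methods, Cy3 material of 16 pools was hybridised to custom 8x60K arrays, and the authors extracted spot intensity values with Agilent Feature Extraction 11.5.1.1 (build dm3). The deposited log2 table holds the authors' values after 75th percentile normalization. Here the deposited background-subtracted, processed intensity of 62976 spots (1319 of them controls, left out) was taken to log2 without outlier spots and centred on each array's 75th percentile, and means were taken over the spots of a feature and then over the features of a gene. Gene names were given to 34986 features, 33153 of them by a RefSeq (Release 6) accession. The others were named by the array's systematic name, the authors' supplementary lists or a transcript shared with a named feature. Symbols from those lists were kept where RefSeq held no single match. Coordinates of Release 6 were not used. Pairs of ages were fitted with limma 3.58.1 (R 4.3.3) on the arrays of both ages, with Benjamini-Hochberg adjustment over all genes or features. Single values were set against each other in exact permutation tests (two-sided), whose smallest p is 0.00216 for 6 against 5 arrays and 0.00794 for 5 against 5. The replicates are pools, nothing says how far their processing was separate, and precision is limited by the few arrays. Named were all members, list genes past the threshold or else the 2 with the largest statistic at 45 against 7 days, and the 3 genes most like each member. The fits were tested on simulated data. Other settings tried were other scalings, the deposited table, normexp background correction (offset 50, on median signals), a floor, dim and outlier spots, slide, slide row, replicate number, other models and leaving out each array. Transcript values, bright features and the grouping by RefSeq accession were added after seeing the data.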

Additional observations from a re-analysis of the deposited data

How the results depend on the processing

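No pump gene passed the threshold under any setting run. Over the pump results and the other settings, direction and side of the threshold were counted as kept in 804 cases. The sign turned in 40, a p below 0.05 was lost in 14 and gained in 8, and a count moved in 7. The 804 include within-array differences read within 1 slide. There the arrays were too few for a permutation p below 0.05, and only the direction was compared. They also include the setting with outlier spots kept, which could not alter the pump values, since 0 pump spots were outliers. The cases that were not kept follow as log2 values, and their causes were not tested. For nrv1, 35 against 7 days was 0.034 with median scaling, 0.049 with slide as a block and 0.068 with the brightest feature, and -0.44 to 0.12 with 1 array left out; 45 against 7 days was -0.052 to 0.51 with 1 array left out, and 45 against 35 days was -0.046 with a slide row term and within slide row 1. For nrv2, 35 against 7 days was -0.10 to 0.16 with 1 array left out. The brightest Atpalpha feature gave 0.089 at 45 against 35 days. The number of pump features past the threshold at 35 against 7 days was 1 with a floor and with all ages in one model, and 0 to 1 with 1 array left out. In the F test it was 1 with the slide block and 2 with trend and robust moderation. It was also 2 with only features well above background on every array of at least 1 age. That setting still keeps the 2 dim Atpalpha features, which were well above background on every 7-day array. With 1 array left out the F test number was 0 to 2 (2 without 35-day replicate 4). Over all features the F test passed 279 in the main setting, 333 with the slide block and 372 with trend and robust moderation. It passed 355 with the features well above background at 1 age and 4109 without 35-day replicate 4. At 35 against 7 days, 3465 features passed with the floor, 317 with all ages in one model and 5834 without 35-day replicate 4, against 46 in the main setting.

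Within arrays, nrv3 minus Atpalpha at 45 against 7 days was 0.65 with quantile normalization (exact permutation p = 0.039), 0.40 with normexp (exact permutation p = 0.0498), -0.035 with bright features and 0.56 to 0.90 with 1 array left out (0.90 without 45-day replicate 2, exact permutation p = 0.00794). It was -0.25 at 35 against 7 days with bright features and -0.080 at 45 against 35 days with the brightest. nrv1 minus Atpalpha at 45 against 7 days was 1.68 within slide row 2, 0.38 with the brightest and 0.65 with bright features, and at 45 against 35 days -0.32 within slide 2 and -0.012 with the brightest. nrv2 minus Atpalpha at 45 against 7 days was -0.17 with the brightest and -0.027 with bright features, and at 45 against 35 days -0.46 to 0.14 with 1 array left out. nrv3 minus nrv2 at 45 against 7 days was 0.030 with quantile normalization, 0.21 within slide 2, 0.21 with the brightest and -0.17 to 0.14 with 1 array left out. At 45 against 35 days it was 0.48 with quantile normalization, 0.60 within slide row 1, 0.43 with the brightest and 0.48 to 0.77 with 1 array left out, and at 35 against 7 days -0.78 to -0.43. FBtr0081519 minus FBtr0081520 at 45 against 7 days was 0.068 within slide row 2, 0.12 grouped by RefSeq accession and -0.10 to 0.060 with 1 array left out. FBtr0081520 minus FBtr0333355 at 35 against 7 days was 0.41 with quantile normalization, 0.39 grouped by RefSeq accession and 0.28 to 0.48 with 1 array left out. FBtr0081519 minus FBtr0333355 was 0.33 at 45 against 35 days within slide row 1, and -0.46 to -0.25 at 35 against 7 days with 1 array left out.

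Replicate numbers are shared across ages but 1 of 15 same-numbered pairs of arrays deviated together (correlation over 0.1), so the numbers were not read as pairs. With replicate number as a block, nrv3 differed by -0.39 at 45 against 7 days, no pump gene or feature passed, and the genes passing over the whole table were 1 at 45 against 7 days, 1 at 35 against 7 days and 1 at 45 against 35 days. At 45 against 7 days the count over all genes ranged from 0 with the slide block to 21. The 21 came with only features well above background on every array of at least 1 age. At 35 against 7 days the count ranged from 1 with the replicate block to 1373 without 35-day replicate 4 (776 with the floor). At 45 against 35 days it ranged from 1 to 4. Dim features limit Atpalpha and the paralogs most.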
